A study of Mus musculus with 12 samples.

Results

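S100 proteins are small calcium-binding proteins that mostly work as dimers, and several of them act by gripping another protein once calcium is bound. Annexins are calcium-dependent membrane-binding proteins, and their short N-terminal tails are the docking sites of some S100 proteins. The best-known pair is S100A10 with annexin A2, a complex that sits under the plasma membrane, carries channels and receptors to the cell surface and serves as a docking place for plasminogen and its activators. S100A11 pairs with annexin A1 in the same manner, S100A4 and S100A6 are abundant in motile and proliferating mesenchymal cells, and S100A8 and S100A9 form calprotectin, a product of neutrophils and monocytes.

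The genes followed numbered 10: *S100a1*, *S100a4*, *S100a6*, *S100a8*, *S100a9*, *S100a10*, *S100a11* and *S100a13* (8 S100 genes) and *Anxa1* and *Anxa2* (2 annexins). They were taken by symbol and correspond to 11 of the 41388 RefSeq transcripts in the deposited count table. The 10 genes were selected on these same data, with their levels and changes in the 4 groups already known, so their values and the calls among them are given as a description, with no p, and nothing is read from them. The gene lists around them were also chosen with earlier results of these data known. The adjusted p values printed for list genes are therefore descriptive as well.

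RNA-seq was done on mouse female germline stem cells (FGSCs) in 4 groups of 3 libraries. The study describes FGSCs as cells from the ovary that renew themselves and can form oocytes. KO cells carried a CRISPR/Cas9 knockout of *Stella* (listed under its official symbol *Dppa3*) and came from 1 single-cell clone, and KO-con was their control, for which the labels give no vector or clone. Over cells had received a lentivirus carrying the *Stella* coding sequence and Over-con cells the empty lentiviral vector, both followed by puromycin selection. All groups were C57BL/6 cells, given as beyond passage 20 in the labels (the study's text counts generations after modification instead), grown with LIF, EGF, bFGF and GDNF on growth-arrested STO feeders, a mouse embryonic fibroblast line. The knockout and the clone cannot be told apart in this design, and the labels do not say whether the 3 libraries of a group were separate cultures, so the spread between libraries may be technical.

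Library totals lay between 5611846 and 12866545 counts, and levels are given as CPM, the counts scaled to a common library size with TMM factors over all 12 libraries. At these totals 3 counts, the smallest amount read as a level, equal 0.230 to 0.529 CPM, and this floor takes account of counting error alone. *Dppa3* had 0 counts in all 9 KO, KO-con and Over-con libraries and 30.4 ± 1.86 CPM (SD, n = 3) in Over, so the counts separate Over from its control and do not check the KO label. The study, in contrast, detected *Stella* in its FGSCs by RT-PCR and immunofluorescence, and the cause of the difference was not tested. The germ cell markers *Ddx4* and *Tfap2c* had 0 counts and *Dazl* and *Pou5f1* 1 count in all libraries together, but each of the 4 has 2 listed transcripts. Of the germ cell markers with 1 listed transcript besides *Dppa3*, *Sohlh1* had 7 counts in all, *Prdm1* 104, *Dnd1* 200 and *Ifitm3* 14674. Many genes with more than 1 listed transcript have few counts in this table, though not all: *Ahnak*, with 4, has 366646.

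All of the 10 genes but *S100a9* have 1 listed transcript. *S100a9* has 2 and had 0 counts in every library, which for that reason cannot be read as absence. *S100a8* (NM_013650) has 1 listed transcript and 2 counts over all 12 libraries, both in KO-con replicate 2, so its level lay under the floor in every library. The other 8 genes passed the filter on low counts in every comparison, and all 8 were measured in all 12 libraries.

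The S100 genes share a stretch of mouse chromosome 3. Order and distances are given among the genes followed, and other genes may lie between them. In NCBIM37 (mm9), the build of the count files, and the GENCODE annotation of that build, *S100a1* occupies positions 90314956 to 90318314 of chromosome 3 (minus strand), and *S100a13* starts 42 bases beyond it, at 90318357 to 90328503 (plus strand). *S100a4* (90407692 to 90409967) and *S100a6* (90416816 to 90418336) lie 6848 bases apart on the plus strand, followed by *S100a8* (90472993 to 90473956, plus strand) and *S100a9* (90496554 to 90499643, minus strand). *S100a11* (93324410 to 93330209) and *S100a10* (93359002 to 93368565) form a second group on the plus strand, 2824766 bases beyond *S100a9* and 28792 bases apart. *Anxa2* occupies 69301427 to 69339602 of chromosome 9 (plus strand) and *Anxa1* 20447918 to 20465434 of chromosome 19 (minus strand).

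The reads of most of these genes can be placed. None of the 30-base stretches of the longest coding transcript of *S100a1*, *S100a4*, *S100a6*, *S100a8*, *S100a9*, *S100a13*, *Anxa1* or *Anxa2* occurs elsewhere in mm9, and 0.915% of those of *S100a10* do. For *S100a11*, 82.6% of the stretches occur at 8 other places, the closest copy lying on chromosome 4 from 115739808 to 115740276 where the annotation has the pseudogene *Gm12854* and the protein-coding *Uqcrh*, so the counts of *S100a11* are uncertain. *Anxa2* shares 98 exonic bases with *Gm16144* on the opposite strand, and the strand setting of the counting is not given in the sources used here.

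The 250 bases before the start of *S100a4*, *S100a6* and *S100a8* are shown. These members lie near each other on the same strand and had very different levels in the same cells. The sequences are from RefSeq (GRCm38.p6), in which 9 of the 10 genes, all but *S100a10*, were matched. Each also has 1 exact match in mm9, and all 3 end on the base before the gene. Capitals mark matches, on either strand, to the TATA box (letters TATAAA), the CCAAT box, the GC box (letters GGGCGG), the AP-1 site (letters TGANTCA) or the E-box (letters CACGTG). No 2 matches overlap in these windows.
*S100a4*, chr3:90603520-90603769 (GRCm38.p6, plus strand): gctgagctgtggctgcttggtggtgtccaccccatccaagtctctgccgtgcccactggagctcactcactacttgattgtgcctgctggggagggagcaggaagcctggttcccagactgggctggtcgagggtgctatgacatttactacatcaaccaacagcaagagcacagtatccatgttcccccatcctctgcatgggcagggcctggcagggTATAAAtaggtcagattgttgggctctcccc
*S100a6*, chr3:90612644-90612893 (GRCm38.p6, plus strand): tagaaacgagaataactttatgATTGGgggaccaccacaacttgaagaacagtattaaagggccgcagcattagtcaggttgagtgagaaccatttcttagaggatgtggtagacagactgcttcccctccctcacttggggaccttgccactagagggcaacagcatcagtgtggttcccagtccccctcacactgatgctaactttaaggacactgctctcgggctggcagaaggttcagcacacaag
*S100a8*, chr3:90668821-90669070 (GRCm38.p6, plus strand): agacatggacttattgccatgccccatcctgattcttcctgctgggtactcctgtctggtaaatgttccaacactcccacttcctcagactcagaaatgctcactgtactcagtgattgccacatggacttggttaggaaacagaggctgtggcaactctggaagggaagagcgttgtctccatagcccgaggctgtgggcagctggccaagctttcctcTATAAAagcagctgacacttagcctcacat

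The windows of *S100a4* and *S100a8* each hold a TATA box, beginning 31 and 30 bases before the start, as do 12.4% of 32851 promoter windows of this length. The *S100a6* window holds no match to TATAAA and 1 reversed CCAAT (found in 33.8% of windows), 228 bases before the start. CpG dinucleotides numbered 2, 3 and 2 in the 3 windows, against a median of 6 over all windows. The *Anxa2* window, not printed here, held 3 matches to GGGCGG (found in 32.7% of windows), 1 to TGANTCA (6.75%) and 1 to TATAAA, while CACGTG (6.02%) was found among the 9 entries in that of *S100a11* alone. GGGCGG was also found in the windows of *S100a9* and *S100a11*, TGANTCA in that of *S100a11* and TATAAA in that of *Anxa1*. These matches describe the letters of the windows and say nothing about which factors bind there.

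*S100a10* (NM_009112), the annexin A2 ligand, was the member that differed most between the groups. The 3 KO-con libraries held 81.8, 74.0 and 82.5 CPM (790, 825 and 680 counts) and the 3 KO libraries 67.2, 53.3 and 52.8 CPM (582, 613 and 581 counts). Over-con held 182, 182 and 182 CPM, equal at this rounding, from 1773, 1030 and 1874 counts, and Over held 101, 98.4 and 116 CPM. The order of the groups was KO, KO-con, Over and Over-con, no neighbours in that order overlapped, and the highest group mean was 3.15 times the lowest.

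*S100a10* was thus lower in the knockout and lower in the overexpressing line, each against its own control. Its log2 fold change was -0.46 (standard error 0.10) in KO against KO-con and -0.78 (standard error 0.07) in Over against Over-con, which is 0.729-fold and 0.581-fold. Leaving out each library in turn gave -0.57 to -0.40 and -0.86 to -0.74. In bulk RNA from a culture, fewer cells of one type and less RNA per cell cannot be told apart.

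The level of the *S100a10* partner *Anxa2* (NM_007585) moved much less. Annexin A2 mRNA lay at 472, 455 and 463 CPM in KO-con, at 432, 518 and 634 CPM in KO, at 628, 522 and 639 CPM in Over-con and at 548, 558 and 530.1 CPM in Over. The KO libraries spread to both sides of KO-con, and every group overlapped its neighbour in the order of group means. The log2 fold change was 0.20 (standard error 0.10) in KO and -0.12 (standard error 0.07) in Over.

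The ratio of the 2 partners, counts per base of transcript of *S100a10* over those of *Anxa2*, needs no scaling between libraries. It was 0.367, 0.343 and 0.376 in KO-con and 0.328, 0.217 and 0.176 in KO. In Over-con it was 0.613, 0.734 and 0.602, and in Over 0.390, 0.373 and 0.463. Every KO library lay under every KO-con library and every Over library under every Over-con library, and both controls differed more from each other than either line from its own control.

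**Figure D1:**
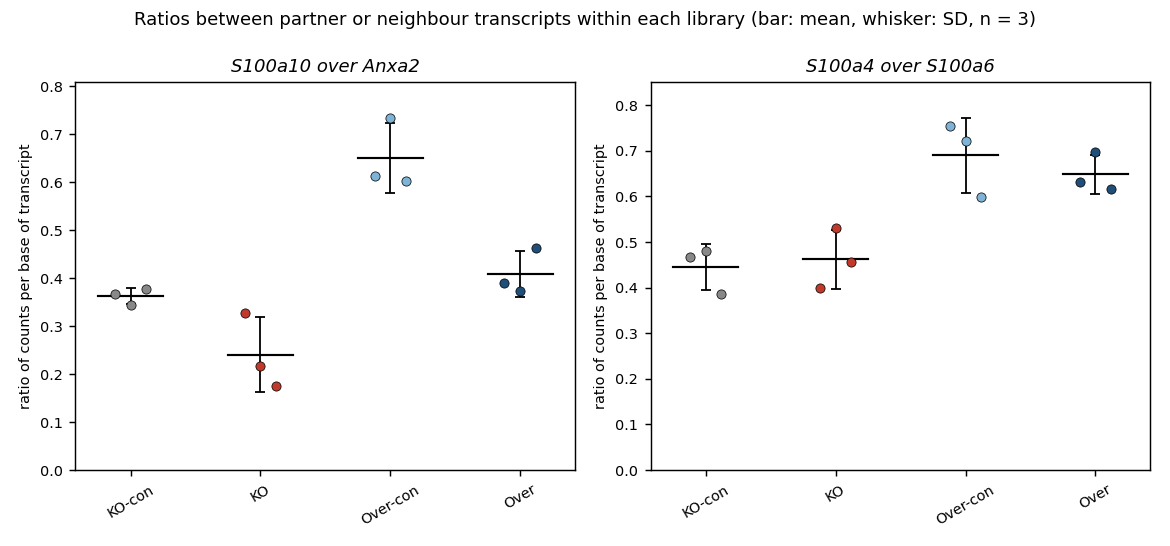
Ratio of counts per base of transcript (no unit) in each library, for *S100a10* over *Anxa2* (left) and *S100a4* over *S100a6* (right); points are libraries, bars means and whiskers SD (n = 3). The left ratio has a mean of 0.362 in KO-con, 0.240 in KO, 0.650 in Over-con and 0.409 in Over, and in the right panel the KO and KO-con libraries all lie under the Over and Over-con libraries.

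*S100a4* (NM_011311), whose product binds non-muscle myosin and marks motile fibroblasts, was lower in the overexpressing line than in its control, while its KO libraries lay on both sides of KO-con. The Over-con libraries held 105, 102 and 99.4 CPM and the Over libraries 80.6, 85.6 and 66.0 CPM, which did not overlap. KO-con held 60.1, 57.8 and 55.0 CPM, and KO held 41.2, 70.1 and 72.9 CPM, 1 library under and 2 above all of KO-con. The log2 fold change was -0.39 (standard error 0.09) in Over and 0.11 (standard error 0.15) in KO.

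*S100a6* (NM_011313), whose product is calcyclin and binds the CacyBP/SIP and Sgt1 adaptors, was per length the most abundant S100 transcript. It held 185, 174 and 205 CPM in KO-con, 149, 191 and 231 CPM in KO, 201, 203 and 240 CPM in Over-con and 184, 177 and 154 CPM in Over. Over lay under Over-con in every library, with a log2 fold change of -0.31 (standard error 0.08), and KO spread to both sides of KO-con, at 0.03 (standard error 0.12).

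The nearby genes *S100a4* and *S100a6* were not kept in 1 proportion. Per base, *S100a4* over *S100a6* was 0.445 ± 0.0509 in KO-con and 0.462 ± 0.0653 in KO, against 0.691 ± 0.0822 in Over-con and 0.649 ± 0.0427 in Over (SD, n = 3). The highest library of the first pair of groups was at 0.530 and the lowest of the second at 0.598, so the ratio separated the KO and KO-con libraries from the Over and Over-con libraries and did not separate either line from its control.

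*Anxa1* (NM_010730), the partner of S100A11 and a substrate of the EGF receptor kinase, held 182 ± 19.6 CPM in KO-con, 200.1 ± 30.0 in KO, 263 ± 25.5 in Over-con and 229 ± 11.7 in Over. Its 3 Over libraries, at 227, 219 and 242 CPM, lay just under the 3 Over-con libraries, at 249, 292 and 247 CPM. The log2 fold change was 0.15 (standard error 0.10) in KO and -0.19 (standard error 0.07) in Over.

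*S100a11* (NM_016740), subject to its uncertain counts, was even across the groups, at 40.7 ± 4.41 CPM in KO-con, 38.9 ± 5.36 in KO, 47.1 ± 9.33 in Over-con and 43.6 ± 0.928 in Over, with overlap between all neighbours. Its log2 fold change was -0.05 (standard error 0.12) in KO and -0.12 (standard error 0.11) in Over. *S100a1* (NM_011309), known from heart and skeletal muscle as a regulator of calcium release, held 4.15 to 9.86 CPM over the 12 libraries. *S100a13* (NM_009113), which takes part in the release of FGF1 without a signal peptide, held 4.96 to 8.81 CPM, with a log2 fold change of -0.37 (standard error 0.19) in KO and -0.12 (standard error 0.19) in Over. With 35 to 125 counts in a library, these 2 genes had the widest standard errors of the members.

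Levels of different genes were compared per kilobase of the longest coding transcript, as the mean over all 12 libraries. *Anxa2* was highest, at 369 CPM per kilobase, followed by *S100a6* at 266, *S100a10* at 155, *S100a4* at 149.8 and *Anxa1* at 131. *S100a11* held 83.3, *S100a1* 11.5 and *S100a13* 9.50 CPM per kilobase. *S100a10* changed place with the group: it held 266 ± 0.405 CPM per kilobase in Over-con, above *S100a4* (205 ± 5.45) and *Anxa1* (157 ± 15.2), and 84.3 ± 11.9 in KO, under *S100a4* (123 ± 35.3) and *Anxa1* (119.6 ± 17.9).

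**Figure D2:**
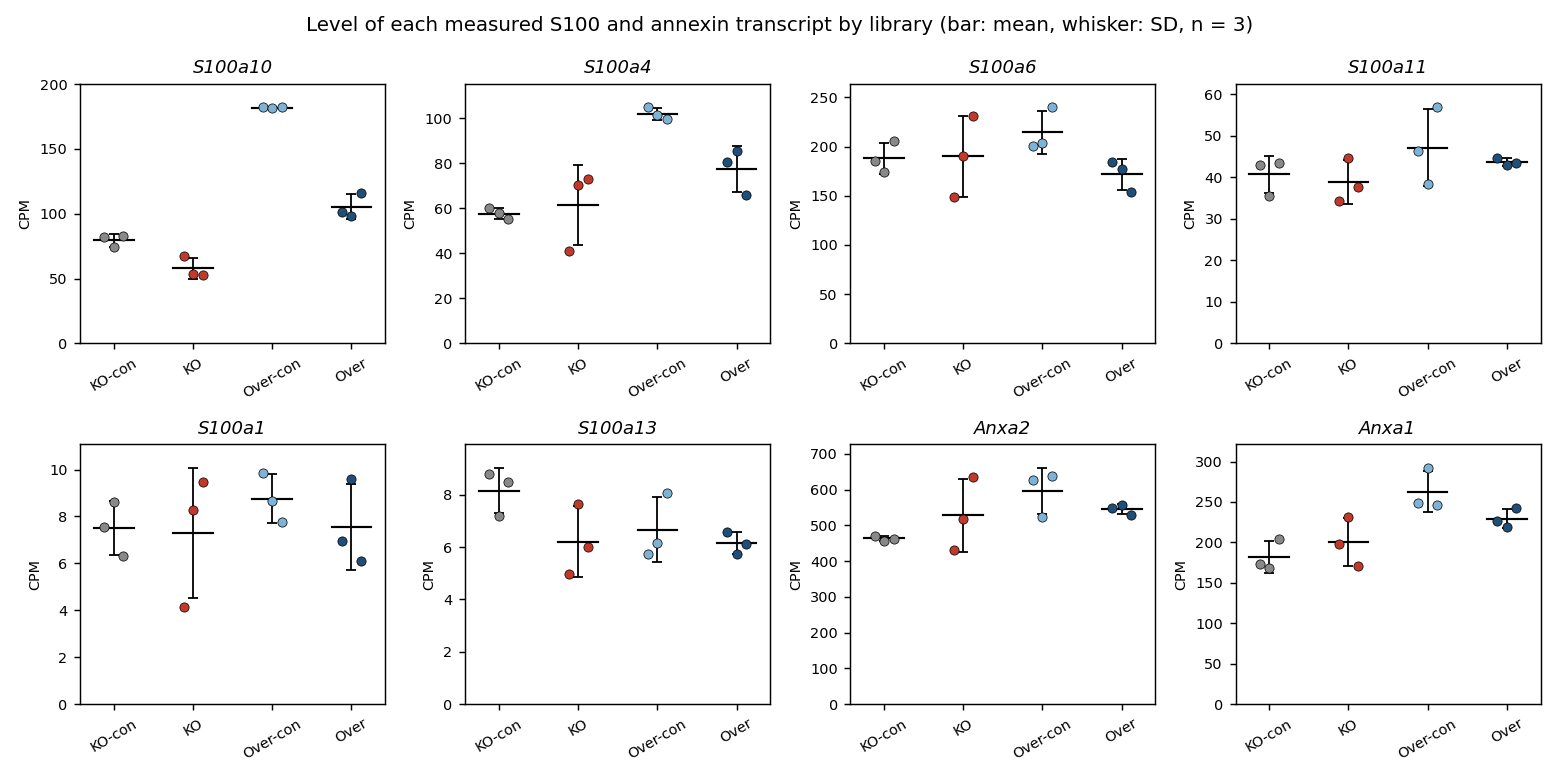
CPM (vertical axis from 0) of the 8 measured members in each library of the 4 groups; points are libraries, bars means and whiskers SD (n = 3). *S100a10* forms 4 separate bands from 57.7 in KO to 182 in Over-con, while the libraries of *Anxa2*, *S100a6*, *S100a11*, *S100a1* and *S100a13* overlap between most groups.

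Counted over the 8 measured members, a call was an adjusted p under 0.05 in edgeR's quasi-likelihood test over all transcripts tested. In KO against KO-con, 1 of 8 was called, *S100a10*, and it was lower, where 11.8% of 9457 transcripts were called in either direction and 5.96% as lower. The same gene was the 1 member whose groups did not overlap, as was the case for 30.5% of all transcripts. In Over against Over-con, all 8 were lower and 2 were called, *S100a10* and *S100a4*, where 1.65% of 9401 transcripts were called and 0.883% as lower, and 4 members did not overlap, the 2 named and *S100a6* and *Anxa1*, against 19.1% of all transcripts. The median log2 fold change of the 8 was 0.00 in KO and -0.19 in Over, beside 0.01 and 0.00 over all transcripts tested. The members were selected with these results known, so nothing is read from the counts.

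The call for *S100a4* in Over was lost without any 1 of 5 of the 6 libraries, all but Over-con replicate 3, with log2 fold changes of -0.47 to -0.28. Without Over-con replicate 3, 4 of 8 members were called in Over, in a fit that called 719 transcripts in place of 155. KO replicate 1 was the lowest KO library for 6 of the 8 members, and without it *S100a4* (0.32) and *Anxa2* (0.32) were called as higher in KO, 3 of 8 members in all, in a fit that called 1271 transcripts in place of 1115.

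More members were called between the 2 control groups than between either line and its control. In KO-con against Over-con, 4 of 8 members were called, all lower, where 16.3% of 9321 transcripts were called and 8.19% as lower. These were *S100a10* at -1.19 (standard error 0.08), *S100a4* at -0.81 (standard error 0.08), *Anxa1* at -0.52 (standard error 0.09) and *Anxa2* at -0.36 (standard error 0.08), and the same 4 did not overlap, as did 32.3% of all transcripts not. The 4 stayed called without any 1 library. The labels do not say what sets the controls apart, and differences in vector, cell line history or preparation could not be told apart.

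The direction of several members in the overexpressing line therefore depended on the control. Set against KO-con, Over was higher for *S100a4* (0.43), *S100a10* (0.41), *Anxa1* (0.34) and *Anxa2* (0.24), each called, where 21.5% of 9413 transcripts were called. *S100a6* (-0.12) and *S100a13* (-0.40) were lower in Over against KO-con too, and *S100a1* (0.02) and *S100a11* (0.11) were higher, none of these 4 called. Set against Over-con, KO was lower for *S100a10* (-1.66), *S100a4* (-0.72) and *Anxa1* (-0.39), each called, where 7.87% of 9363 were. In KO, *S100a10* was the 1 member called as lower against both controls, and in Over no member was. The comparisons with exchanged controls share libraries with the others.

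**Figure D3:**
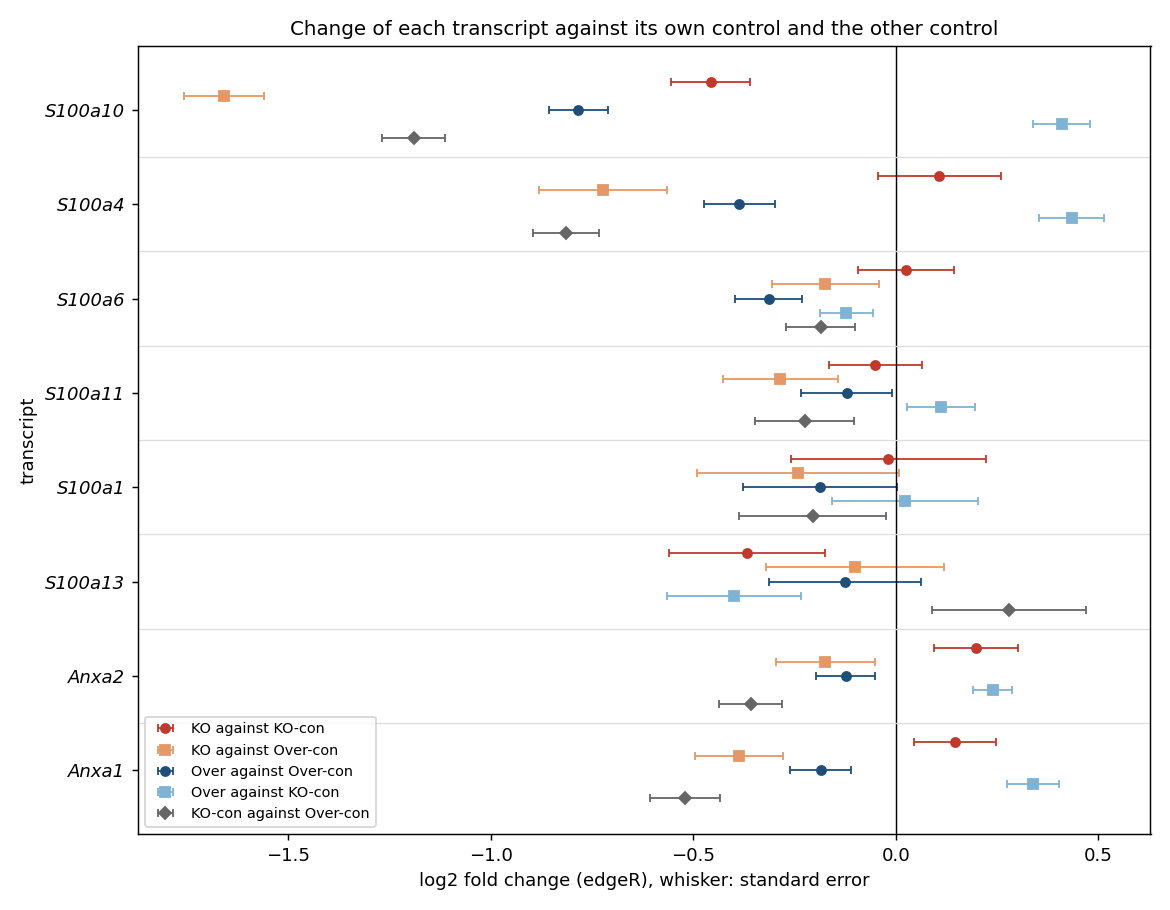
Log2 fold change (horizontal axis) of the 8 measured members in 5 comparisons, with standard errors as whiskers. The points of *S100a10* lie left of 0 in every comparison but Over against KO-con, at 0.41, and the spread between comparisons is wider for *S100a10*, *S100a4* and *Anxa1* than for *S100a6* and *S100a11*.

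The effect in KO minus the effect in Over, fitted with all 12 libraries, was called for 0 of 8 members by edgeR, where 8.64% of 9903 transcripts were called, and for 0 by DESeq2. The differences were largest for *S100a4* at 0.49 (standard error 0.20) and *S100a6* at 0.34 (standard error 0.16). For *Anxa1* the value was 0.33 (standard error 0.14), for *S100a10* 0.33 (standard error 0.13) and for *Anxa2* 0.32 (standard error 0.14).

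The rest of the S100 family gave little to compare. Of 9 other S100 genes, *S100a7a* (NM_199422) was the 1 that passed the filter, at 0.917 to 1.63 CPM in the group means, and its log2 fold change was -0.57 (adjusted p = 0.399) in KO and -0.35 (adjusted p = 0.760) in Over. The genes *S100a3*, *S100a14* and *S100a16* have 3 to 7 listed transcripts and 0 to 5 counts in all, and *S100b*, *S100g*, *S100a5*, *S100z* and *S100a7l2* have 1 listed transcript and 0 to 25 counts.

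Among the 10 other annexins, 4 genes with 5 transcripts were tested. In each line 1 of the 5 was called, where 11.8% of all transcripts were called in KO and 1.65% in Over. *Anxa5* (NM_009673), a phosphatidylserine-binding annexin and the most abundant of them, rose in KO from 329, 326 and 309 CPM to 354, 383 and 451 CPM (log2 fold change 0.31 ± 0.08 SE, adjusted p = 0.0244). In Over it fell from 548, 494 and 489 CPM to 424, 425 and 383 CPM (log2 fold change -0.31 ± 0.07 SE, adjusted p = 0.0314). The libraries of the groups did not overlap in either comparison, as was the case for 30.5% of all transcripts in KO and 19.1% in Over. The call was lost in KO without any 1 of the KO-con libraries or of KO replicates 2 and 3, and in Over without any 1 library but Over-con replicate 3, with 0 of 5 annexin transcripts called each time, and without KO replicate 1 *Anxa3* was called as well.

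The other annexins passed no test against their own control. *Anxa3* held 129 ± 3.90 CPM in KO-con and 147 ± 9.51 in KO (log2 fold change 0.20, adjusted p = 0.0885), and *Anxa11* 77.5 ± 13.6 CPM in Over-con and 64.5 ± 6.38 in Over (-0.26, adjusted p = 0.337). Between the controls, *Anxa5* (-0.66, adjusted p = 1.2e-06) and *Anxa11* (-0.58, adjusted p = 0.000624) were lower in KO-con than in Over-con, where 16.3% of all transcripts were called. *Anxa6*, *Anxa8* and *Anxa10* had 0 counts and have 2 or 3 listed transcripts each.

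Binding partners and receptors of these proteins were followed as a list of 28 genes, of which 18 were tested. In KO 2 rose and 1 fell, where 11.8% of all transcripts were called, and the median log2 fold change of the 18 was 0.12, beside 0.01 over all transcripts. *Plaur*, the urokinase receptor, fell from 236, 211 and 207 CPM in KO-con to 101, 112 and 150.1 CPM in KO (log2 fold change -0.84 ± 0.11 SE, adjusted p = 0.000159). *Plau*, urokinase, the plasminogen activator that binds this receptor, rose from 57.0, 54.1 and 65.7 CPM to 89.0, 85.7 and 110.2 CPM (log2 fold change 0.70 ± 0.10 SE, adjusted p = 0.000402).

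Receptor and ligand of the plasminogen activation system thus moved in opposite directions in the knockout. Neither overlapped between the groups, as was the case for 30.5% of all transcripts. *Tlr4*, a receptor for calprotectin and other danger signals, rose from 119, 128 and 138 CPM to 197, 169 and 159 CPM (log2 fold change 0.45 ± 0.09 SE, adjusted p = 0.00248). The same 3 genes stayed called in KO without any 1 library. With Over-con as the control, *Plaur* and *Plau* stayed called in KO and *Tlr4* did not, where 7.87% of 9363 transcripts were called.

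In Over, 1 of the 18 fell and none rose, where 1.65% of all transcripts were called, with a median of -0.07 beside 0.00 over all transcripts. *Plaur* fell from 227, 181 and 222 CPM to 161, 162 and 148 CPM (log2 fold change -0.42 ± 0.08 SE, adjusted p = 0.0152), a call that was lost without Over-con replicate 1 or any 1 Over library, each of which left 0 of 18 called, against 3 of 18 without Over-con replicate 3. Those fits called 48 to 59 transcripts in all, and the last one 719. *Plau* was at 48.8 ± 5.84 CPM in Over-con and 52.6 ± 2.27 in Over (adjusted p = 0.658). The direct plasminogen binders and activators *Plat* and *Plgrkt* passed in neither line, at 20.4 to 25.1 and 43.8 to 52.1 CPM in the group means, and *Plg* itself had 1 count in all.

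The partners of highest CPM, which is not scaled for their long transcripts, were the scaffold *Ahnak*, which binds the S100A10 and annexin A2 complex, and *Myh9*, the myosin heavy chain that S100A4 binds. *Ahnak* held 2834 ± 119 CPM in KO-con, 3294 ± 182 in KO (adjusted p = 0.0640), 3335 ± 292 in Over-con and 2940 ± 91.1 in Over (adjusted p = 0.283). *Myh9* held 2461 ± 139, 2522 ± 240, 2822 ± 63.8 and 2649 ± 129 CPM in the same order (adjusted p = 0.809 and 0.600). *Cacybp* and *Sugt1*, partners of S100A6, passed in neither line. *Ager*, the RAGE receptor of several S100 proteins, had 0 counts and 7 listed transcripts.

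**Figure D4:**
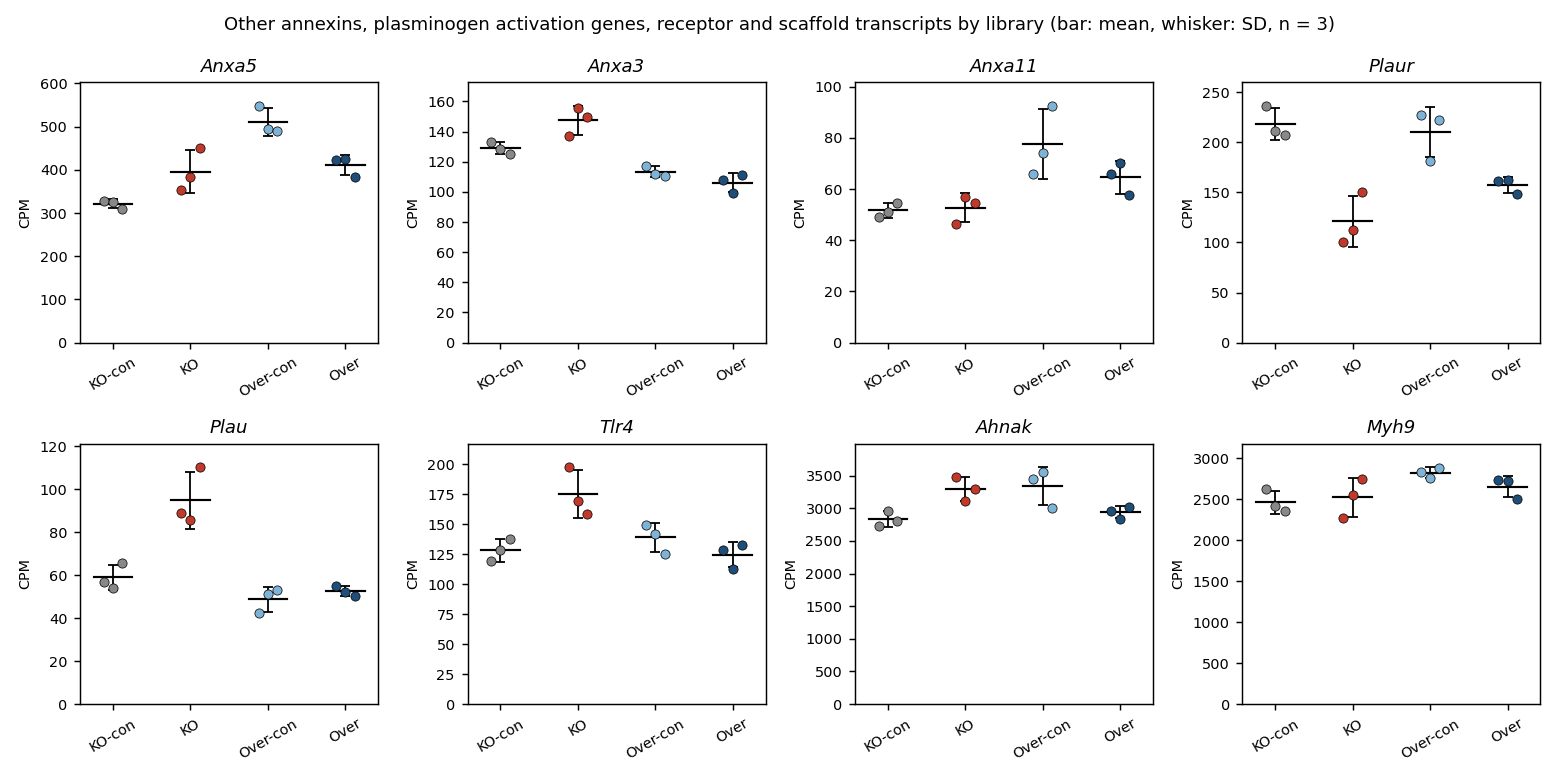
CPM (vertical axis from 0) of other annexins, plasminogen activation genes, *Tlr4*, *Ahnak* and *Myh9* in each library; points are libraries, bars means and whiskers SD (n = 3). In KO, *Plaur* lies under and *Plau* and *Tlr4* lie above every KO-con library, and *Anxa5* is above its control in KO and under it in Over.

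Because fibroblasts are rich in S100 proteins and annexins and the cells grew on fibroblast feeders, markers of other cell types were summed in each library. Fibroblast or feeder markers (11 of 15 at a mean of 1 CPM or more, led by *Col1a2*, *Col1a1* and *Col6a1*) summed to 1365 to 1583 CPM in KO-con, 1218 to 1740 in KO, 1944 to 2127 in Over-con and 1686 to 1746 in Over. The sums were highest in Over-con, did not overlap between Over-con and Over, and overlapped between KO-con and KO. *Col1a1* was at 334 ± 30.3 CPM in KO-con, 306 ± 65.1 in KO, 465 ± 41.9 in Over-con and 390 ± 13.7 in Over. The part of these markers in the members' values was not tested. *Sparc* and *Pdgfrb*, with 2 listed transcripts each, were at 0.

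Mast cell markers (7 of 13, led by *Cpa3*, *Slc18a2* and *Tph1*) summed to 455 to 528 CPM in KO-con, 1267 to 1333 in KO, 884 to 999 in Over-con and 781 to 798 in Over. Most of each sum was *Cpa3*, at 402 ± 33.4 CPM in KO-con and 1172 ± 39.6 in KO, while *Tph1* was lower in KO, at 16.2 ± 2.33 CPM against 26.7 ± 3.65 in KO-con. *Fcer1a* and *Tpsab1*, with 1 listed transcript each, and *Ms4a2*, with 4, were at 0. The part of these markers in the members' values was not tested either. Macrophage or monocyte markers (4 of 11, led by *Fcgr1*, *Cd68* and *Cd14*) summed to 184 to 203 CPM in KO-con, 231 to 271 in KO, 218 to 241 in Over-con and 232 to 239.6 in Over, and *C1qa* and *C1qb*, with 1 listed transcript each, were at 0, as were *Adgre1* and *Itgam* with 3 and 2. Neutrophil markers (1 of 10) summed to 175 to 205, 159 to 168, 296 to 347 and 268 to 274 CPM in the same order of groups, almost all of it *Cxcr2*, while *Prtn3* and *Camp* followed at 0.946 and 0.683 CPM on average and *Csf3r*, with 3 listed transcripts, was at 0. The neutrophil genes *Mpo*, *Elane* and *Ly6g* had 2 to 4 counts in all, like *S100a8*. Germ cell markers (3 of 12, led by *Ifitm3*, *Dppa3* and *Dnd1*) summed to 117 to 141, 80.0 to 122, 153 to 168 and 149 to 163 CPM, most of it *Ifitm3*, at 155 ± 8.05 CPM in Over-con and 125 ± 8.15 in Over, with *Dppa3* adding 30.4 CPM in Over.

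The transcripts with the profile most like a member over the 12 libraries were found for the 3 members of highest mean CPM, not scaled for length, by the root mean square difference of log2 CPM after centring each transcript. For *Anxa2* these were *Zfp772* (0.0689), *Ostf1* (0.0729) and *Lasp1* (0.0768), against a median of 0.280 over 9903 transcripts. For *Anxa1* these were *Col1a2* (0.0994), a fibrillar collagen and marker of the fibroblast list, *Cd109* (0.103) and *Gca* (0.106), against a median of 0.317. For *S100a6* these were *Bst2* (0.0989), *Ftl1* (0.104) and *Acbd6* (0.105), against a median of 0.290. Like *Anxa2*, *Ostf1* was lowest in KO-con, at 148 ± 8.01 CPM, and highest in Over-con, at 191 ± 16.1, and like *Anxa1*, *Col1a2* went from 525 ± 50.7 in KO-con to 682 ± 30.8 in Over-con (SD, n = 3).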

How the data were processed

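The authors prepared stranded mRNA libraries from total RNA. Reads were trimmed and aligned to mm9 with HISAT2, and the authors deposited raw counts per RefSeq transcript, without normalization; the annotation release, strand setting and treatment of shared reads are not given in the sources used here. The submitters' processing notes also name DESeq2. Symbols were found for 41186 of 41388 accessions.

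Each comparison was fitted on its own libraries with edgeR 4.0.16 in R 4.3.3 (filterByExpr, TMM, glmQLFit, glmQLFTest, Benjamini-Hochberg over all transcripts tested), with a threshold of 0.05. CPM were scaled over all 12 libraries, and log2 CPM used a prior count of 2. Standard errors came from the log2 fold change and its F statistic. The steps were tested on simulated data. Groups came from the sample titles. The 10 genes and the gene lists were chosen with earlier results of these data known. Named were all members, up to 5 called genes per list and comparison, the 2 most abundant genes of a family or partner list, the 3 most abundant of a marker list with defining markers at 0, the 3 transcripts most like each of 3 members, and *Dppa3*; a few others with low or no counts were named after their values were seen. Positions came from NCBIM37 and its GENCODE annotation, promoter windows from RefSeq. Python 3.11.15, numpy 2.4.6, pandas 2.3.3 and matplotlib 3.10.9 were used.

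Replicate numbers did not pair the libraries. Within groups the chi-square per degree of freedom between libraries was 2.02 to 14.0 over 12 pairs, so no library was a copy of another. Alternatives were DESeq2 1.42.0, other size factors, library totals, other filters, counts summed per gene, 1 fit of all libraries, a replicate block, the other control, an added fold change threshold and each library left out.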

Additional observations from a re-analysis of the deposited data

Results flagged for a closer look

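In the lists of genes around the members, 4 genes had an effect in KO that differed from that in Over, each against its own control. The test was edgeR's quasi-likelihood test of the knockout effect minus the overexpression effect with all 12 libraries (856 of 9903 transcripts passed). It compares the changes and not the levels of the 2 lines. *Anxa5* differed by 0.61 on the log2 scale (adjusted p = 0.00138), having risen in KO and fallen in Over, each against its own control. The controls themselves differed by -0.66 (KO-con against Over-con). The group means of KO (396 ± 49.6 CPM) and Over (411 ± 23.6) both lay above KO-con (321 ± 10.4) and under Over-con (510 ± 32.8; SD, n = 3). The direction of *Anxa5* in each line therefore depended on the control. *Tlr4* differed by 0.61 (adjusted p = 0.00466), with 0.45 in KO and -0.15 in Over, and was not called in KO against Over-con. *Plau* differed by 0.58 (adjusted p = 0.0194), with 0.70 in KO and 0.12 in Over, and this call was lost without KO-con replicate 1 or 2 or Over replicate 2 or 3. *Ahnak* differed by 0.40 (adjusted p = 0.0162), with 0.22 in KO and -0.17 in Over, neither of which passed alone, and this call was lost without Over replicate 2. Between the controls *Ahnak* was lower in KO-con than in Over-con (-0.23, adjusted p = 0.0496 in edgeR's test of those 2 groups). That call was lost without any 1 library but Over-con replicate 3, with DESeq2 size factors and with the minimum of 10 counts. The *Ahnak* means of KO (3294 ± 182 CPM) and Over (2940 ± 91.1) also lay above KO-con (2834 ± 119) and under Over-con (3335 ± 292).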

How the results depend on the processing

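Over 504 alternative fits of a member's log2 fold change, 480 left the call as it was, 11 gained a call, 7 lost it and 6 were of the opposite sign in values called by 1 of the 2 fits or both. In all 23 fits turned the sign: 10 with the other control, 12 with 1 library left out and 1 with library totals. The 6 used the other control: *S100a4* -0.72 and *Anxa1* -0.39 in KO, and *S100a4* 0.43, *S100a10* 0.41, *Anxa1* 0.34 and *Anxa2* 0.24 in Over. With the other control, calls numbered 737 transcripts, 3 members and 3 annexins in KO, and 2026, 4 and 3 in Over. The numbers did not pair the libraries (correlations of same-numbered deviations -0.152 to 0.0568), and with the replicate block Over had 67 transcripts, 1 member, 0 annexins and 0 partners called, while KO kept 1 member and 837 transcripts. One fit of all 12 libraries gave 1 member, 0 annexins and 0 partners in Over and 5 partners in KO. No filter gave 302 transcripts in Over and 1 member in the difference. Library totals gave 2 annexins in KO and moved the share of higher calls from 49.4% to 61% in KO and from 49.7% to 35.5% between the controls. A log2 fold change over 1 left 161, 16, 201 and 188 transcripts (KO, Over, controls, difference), 0, 0 and 1 members (KO, Over, controls), and 0 annexins and 0 partners in both lines. Leaving out 1 library gave, for transcripts, 613 to 1271 in KO, 48 to 719 in Over, 882 to 1988 between controls and 536 to 1126 in the difference. For members it gave 1 to 3, 1 to 4, 4 to 4 and 0 to 3, for annexins 0 to 2 and 0 to 1, and for partners 3 to 3 and 0 to 3. *S100a10* was called as lower in both lines with every fit on its own control, fold threshold aside. *S100a1* and *S100a13*, at 35 to 125 counts, are limited by depth. The cause of these shifts was not tested.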
